A study of Bos taurus with 27 samples.

Results

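Ion-pumping ATPases use ATP to move ions against their gradients across membranes. The genes described here were the vacuolar-type proton pump (V-ATPase) subunits and the P-type pumps for calcium, protons and copper, with the beta subunits and FXYD proteins of the sodium pump. They were chosen by name alone, as the probes whose gene name started with ATP1B, ATP2A, ATP2B, ATP2C, ATP4, ATP6V, ATP6AP, ATP7, ATP12A or FXYD. This gave 49 genes of 14952 gene names on the array, each with 1 probe, so that 49 of 15008 probes were members. By class, 13 were subunits of the V1 sector of the V-ATPase, 9 of its V0 sector and 3 accessory proteins, 4 were sodium pump beta subunits and 6 FXYD proteins, 9 were calcium pumps, 3 belonged to proton-potassium pumps and 2 were copper pumps.

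RNA was taken from rumen epithelium (RE), the stratified lining of the forestomach, of 9 Japanese Black cattle and measured on 27 one-color arrays. Every animal was a castrated and rumen-fistulated bull fed concentrate with rice straw, and gave a biopsy at each of 3 fattening stages, when 14, 21 and 29 months old, called early, middle and late. The 3 stages thus shared breed, castration, fistula and kind of diet, differed in age and in the ratio of forage to concentrate, and had no untreated control. The first period is middle against early, the second period late against middle, and the total period late against early.

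The V-ATPase has a V1 sector in the cytosol that splits ATP and a V0 sector in the membrane that carries protons into lysosomes and other compartments, or out of the cell. Na+/K+-ATPase keeps sodium low inside the cell and drives sodium uptake across the rumen wall, where it takes part in absorbing fermentation acids. Calcium pumps of the endoplasmic reticulum (SERCA), plasma membrane (PMCA) and secretory pathway (SPCA) remove calcium from the cytosol, and copper pumps load enzymes with copper or export it.

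The middle-stage arrays were dimmer than the others. Early-stage arrays had a median processed signal of 35.2 to 48.6, middle-stage arrays of 8.22 to 28.7 and late-stage arrays of 32.2 to 47.0, with 68.9% to 78.2%, 48.8% to 71.6% and 68.5% to 73.8% of probes well above background. Slide 1 held early-stage cattle 1 to 8, slide 2 held early-stage animal 9 with middle-stage cattle 1 to 7, slide 3 held middle-stage cattle 8 and 9, and slides 4 and 5 held the late stage alone, so that slide and stage could be separated only in the first period, through 1 early-stage array. Of 15 stratified epithelial markers on the array, 14 were well above background on all 9 early-stage arrays, and KRT4 on none. A level below is the log2 processed signal minus the median of that array, so 0 is the middle of the array. Levels of different genes come from different probes and were not ranked against each other.

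Of the 49 members, 21 were well above background on all 27 arrays, 30 on all 9 arrays of at least 1 stage, and 9 on no array. The 9 were ATP6V1E2, ATP6V1G3, ATP1B2, ATP1B4, FXYD1, FXYD2, ATP4B, ATP2B2 and ATP2B3. A probe in the background sits near the lowest signal the software writes, and on a dim array this lowest signal lies nearer to the median. Members in the background can therefore move with the array and are given without direction. A member was taken as measured in a comparison where it was well above background on at least 5 of 9 arrays in both stages.

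**Figure D1:**
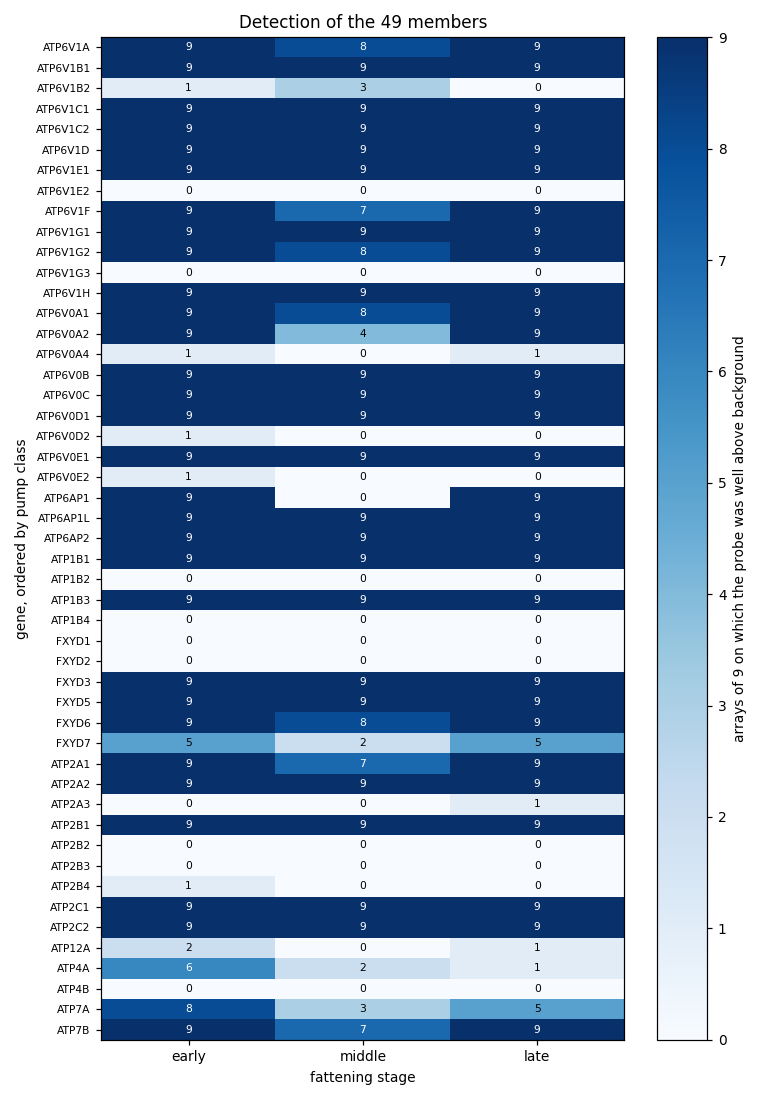
Number of arrays, of 9 in each fattening stage (columns), on which the probe of each of the 49 members (rows, by pump class) was well above background. 9 members were at 0 in every stage, and ATP6AP1 was at 9, 0 and 9.

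The array reads each gene through a short probe. The sequences below belong to 5 V-ATPase members with wide changes and to a calcium pump that took another course, chosen after their values were seen, and they show which stretch of transcript was read. They are given 5′ to 3′ as in the array design, in lower case, with positions on the UMD 3.1 assembly (bosTau6) as the scanner output lists them. The capitals in ATP6V1A mark a TAG stop that closes a frame open over the rest of the probe, and the others had at least 1 frame without a stop.
ATP6V1A, chr1:58937909-58937968, plus strand: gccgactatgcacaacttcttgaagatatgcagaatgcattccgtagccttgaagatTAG
ATP6V1H, chr14:23511733-23526808, minus strand: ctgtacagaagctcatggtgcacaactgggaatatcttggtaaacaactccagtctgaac
ATP6V0B, chr3:102672501-102672560, minus strand: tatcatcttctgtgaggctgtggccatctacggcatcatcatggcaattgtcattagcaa
ATP6V0D1, chr18:35166451-35166510, minus strand: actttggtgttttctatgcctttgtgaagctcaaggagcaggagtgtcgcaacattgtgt
ATP6AP1, chrX:40406380-40406439, plus strand: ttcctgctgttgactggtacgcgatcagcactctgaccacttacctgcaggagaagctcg
ATP2A2, chr17:56493848-56493907, plus strand: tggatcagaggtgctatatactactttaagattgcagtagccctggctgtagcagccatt
The ATP6V1H probe is 60 bases long but spans 15076 bases of the assembly, so it bridges an intron of the gene, while the other 5 lie in 60 bases each.

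Most V-ATPase genes fell in the first period (12 of 17 measured) and rose in the second (13 of 17). In the first period, 33 of 49 members differed at an adjusted *P* below 0.05 in limma, where 66.5% of all probes did. Among the 28 measured in both stages, 3 were higher, 14 were lower and 11 did not pass, where 33.8% of measured probes were higher and 28.4% lower. With the slide as a fixed term, which rests on 1 early-stage array, 5 of 49 were called in the first period, all 5 of them higher. Of all probes, 1238 of 15008 were called in that fit. In the second period, 37 of 49 differed against 71.5% of all probes, and of 28 measured members 16 were higher and 3 lower, against 37.3% and 30% of measured probes. In the total period, 12 differed, against 20.1% of all probes. The median change of all 49 members was 0.09, -0.13 and 0.13 on the log2 scale, beside 0.32, -0.27 and 0.03 over all probes, and the median over measured members was -0.38, 0.64 and 0.24.

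**Figure D2:**
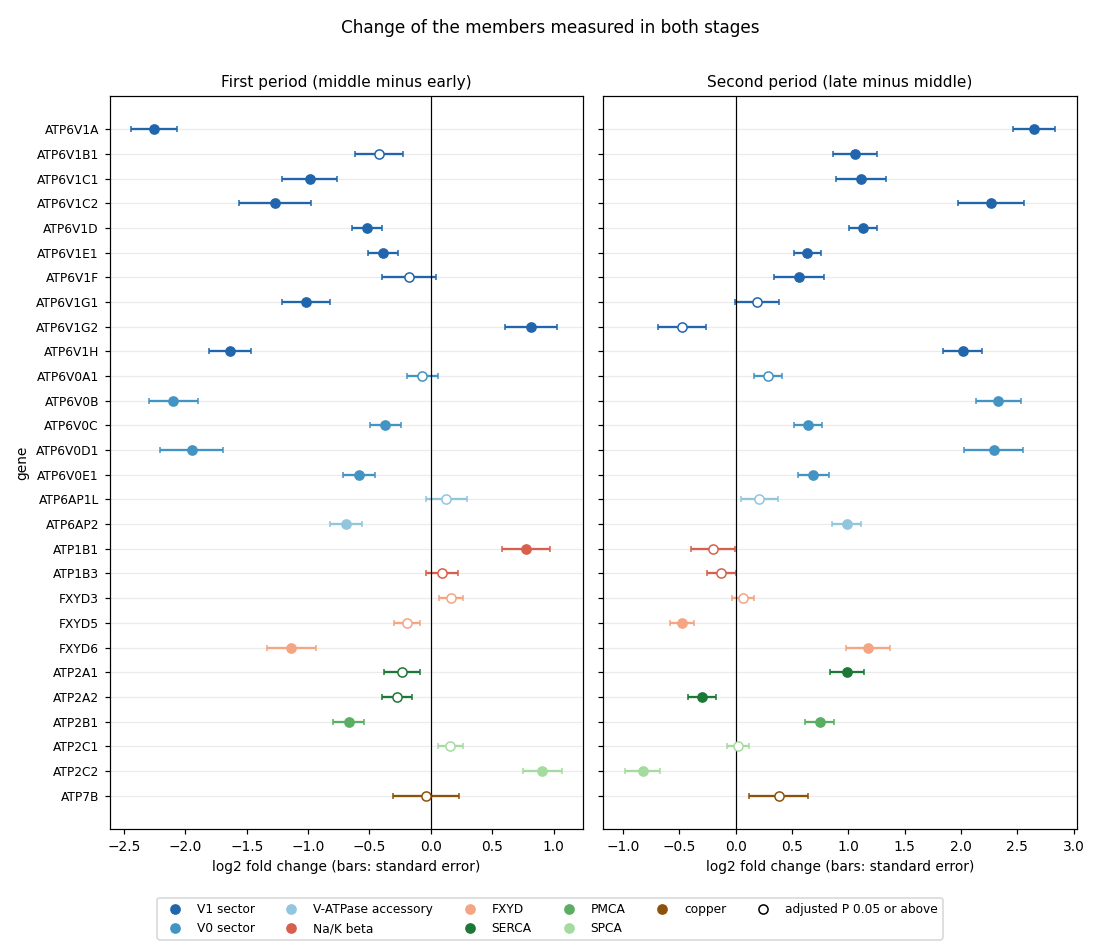
log2 fold change with its standard error (limma, 9 cattle) of each member measured in both stages, in the first period (left) and the second period (right), colored by class, with open symbols for an adjusted *P* of 0.05 or above. Most V-ATPase members lie left of 0 in the first period and right of it in the second, with ATP6V1A at -2.26 and 2.65, and ATP6V1G2 and ATP2C2 lie the other way.

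Most measured genes of the V1 sector fell in the first period. Of its 13 genes, 10 were measured, 7 of them were lower at the middle stage, where 28.4% of measured probes were, 1 was higher and 2 did not pass. In the second period 8 of 10 were higher, where 37.3% of measured probes were, and 0 lower. ATP6V1A, the catalytic subunit that binds and splits ATP, had levels of 2.32 to 3.22 (median 2.72) at the early stage, -0.71 to 1.00 (median 0.48) at the middle stage and 2.77 to 3.33 (median 3.23) at the late stage. No middle-stage array reached the lowest early or late array. The level fell by 2.26 on the log2 scale (SE 0.19, adjusted *P* = 3.19e-08), a 4.78-fold decrease, in 9 of 9 cattle, and then rose by 2.65 (adjusted *P* = 1.28e-09), a 6.28-fold increase, in 9 of 9. ATP6V1H, which regulates the coupling of the sectors, ranged from 3.27 to 4.02 (median 3.53), from 0.72 to 2.35 (median 2.19) and from 3.61 to 4.16 (median 3.89). Its stages did not overlap either in the first period, a fall of 1.64 (SE 0.17, adjusted *P* = 4.61e-07), or in the second period, a rise of 2.02 (adjusted *P* = 1.34e-08).

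The C subunits, which bridge the stalk of the pump, moved the same way. ATP6V1C2 had levels of 3.55 to 5.37 (median 4.19), 1.94 to 4.80 (median 3.19) and 5.18 to 5.98 (median 5.40), so that early and middle arrays overlapped and middle and late arrays did not. It fell by 1.27 (SE 0.29, adjusted *P* = 0.000952) in 8 of 9 cattle and rose by 2.27 (adjusted *P* = 2.04e-06), and was the V1 gene that ended highest above its start, at 0.99 (SE 0.29, adjusted *P* = 0.0214, higher in 8 of 9). Without animal 6 this total change just missed the threshold (adjusted *P* = 0.0543). ATP6V1C1 fell by 0.99 (adjusted *P* = 0.000756) and rose by 1.12 (adjusted *P* = 0.000187), without overlap between stages in either period. ATP6V1D, of the central rotating stalk, had levels of 5.86 to 6.42 (median 6.08), 4.86 to 6.06 (median 5.60) and 6.54 to 6.89 (median 6.74). All late arrays lay above all early and all middle arrays. The first-period fall was 0.52 (SE 0.12, adjusted *P* = 0.00122), the second-period rise 1.13 (adjusted *P* = 2.78e-07) and the total change 0.61 (adjusted *P* = 0.00171). ATP6V1B1, the B subunit of acid-secreting cells, did not pass in the first period (-0.42, adjusted *P* = 0.0608) and then rose by 1.06 (adjusted *P* = 8.8e-05), ending above its early level by 0.63 (adjusted *P* = 0.0265).

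The 2 measured G subunits, parts of the outer stalk, took different courses. ATP6V1G1 had levels of 5.08 to 6.23 (median 6.00), 3.38 to 5.43 (median 5.10) and 4.93 to 5.40 (median 5.08). It fell by 1.02 (SE 0.20, adjusted *P* = 0.000193) and stayed low, with a second-period change of 0.19 (adjusted *P* = 0.397) and a total fall of 0.83 (SE 0.20, adjusted *P* = 0.00537). Normexp background correction left a total change of -0.55 without a call (adjusted *P* = 0.389). ATP6V1G2, the brain-enriched form, had levels of -2.10 to -1.13 (median -1.61), -1.63 to 0.89 (median -0.92) and -1.43 to -0.65 (median -1.38), with all 3 stages overlapping. It was higher at the middle stage in 9 of 9 cattle, by 0.82 (SE 0.21, adjusted *P* = 0.00251), a call lost with a random slide block (0.73, adjusted *P* = 0.0849). The second-period change of -0.48 did not pass (adjusted *P* = 0.0523), though it did with 75th percentile scaling (-0.66, adjusted *P* = 0.0157). ATP6V1E1, of the outer stalk, changed by -0.39 (adjusted *P* = 0.00936) and 0.64 (adjusted *P* = 0.000137). ATP6V1F passed in the second period alone (0.56, adjusted *P* = 0.0285).

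In the V0 sector, 5 of 9 genes were measured in the first period, and 4 of them were lower at the middle stage and then higher at the late stage. Of all measured probes, 28.4% were lower in the first period and 37.3% higher in the second. ATP6V0B, a proton-carrying proteolipid of the rotor ring, had levels of 5.94 to 6.52 (median 6.23), 2.58 to 4.95 (median 4.26) and 6.29 to 6.56 (median 6.50). The stages did not overlap in either period. The fall was 2.10 (SE 0.20, adjusted *P* = 1.53e-07), or 4.29-fold, and the rise 2.33 (adjusted *P* = 1.39e-08), or 5.04-fold. ATP6V0D1, which joins the ring to the central stalk, had levels of 4.43 to 4.91 (median 4.49), 0.31 to 3.45 (median 2.91) and 4.56 to 5.26 (median 4.97). It fell by 1.95 (SE 0.26, adjusted *P* = 5.77e-06) and rose by 2.29 (adjusted *P* = 4.34e-07), again without overlap. ATP6V0C, the other proteolipid of the ring, changed less. Its levels were 7.70 to 8.24 (median 7.89), 7.14 to 7.98 (median 7.59) and 7.69 to 8.42 (median 8.23), with overlap in both periods, a fall of 0.37 (SE 0.12, adjusted *P* = 0.0133, lower in 8 of 9) and a rise of 0.64 (adjusted *P* = 0.000139). The call of its fall was lost with a random slide block (-0.34, adjusted *P* = 0.123). ATP6V0E1, a small subunit, fell by 0.58 (adjusted *P* = 0.000885) and rose by 0.69 (adjusted *P* = 0.000145). ATP6V0A1, a proton-channel a subunit, passed in neither (-0.07, adjusted *P* = 0.644, and 0.29, adjusted *P* = 0.0516). Its relative ATP6V0A2 was well above background on 9, 4 and 9 arrays, with levels of -0.42 to 0.21 (median -0.10), -2.70 to -0.86 (median -1.83) and -0.17 to 0.12 (median -0.13). The middle-stage values, 5 of 9 of them in the background, lay below all early and late values.

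Both well-known accessory proteins were lower at the middle stage. ATP6AP2, the (pro)renin receptor, which is needed to assemble the pump, had levels of 5.37 to 5.96 (median 5.56), 4.06 to 5.53 (median 4.94) and 5.71 to 6.03 (median 5.93). It fell by 0.69 (SE 0.13, adjusted *P* = 0.000151) and rose by 0.98 (adjusted *P* = 2.37e-06), in 9 of 9 cattle each time. ATP6AP1, another assembly and targeting subunit, was well above background on all 9 early-stage arrays (-0.76 to 0.15, median -0.72), on 0 of 9 middle-stage arrays and on all 9 late-stage arrays (-0.69 to 0.20, median -0.35). It was at least 2.10-fold lower in the first period and at least 2.49-fold higher in the second, where the bound takes the dimmest signal that each middle-stage array still called well above background, or the probe's own where higher. The bounds were not tested. The limma fit, which took the middle-stage background values as they were, gave an adjusted *P* of 1.36e-07 and 1.35e-08. ATP6AP1L, a relative of ATP6AP1, differed between cattle rather than stages. Cattle 1 and 2 had levels of -1.80 and -0.95 at the early stage, -1.09 and -1.60 at the middle stage, and -1.47 and -0.88 at the late stage, while the other cattle had at least 0.06 in every stage, and no stage comparison passed (adjusted *P* = 0.508, 0.257 and 0.164).

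**Figure D3:**
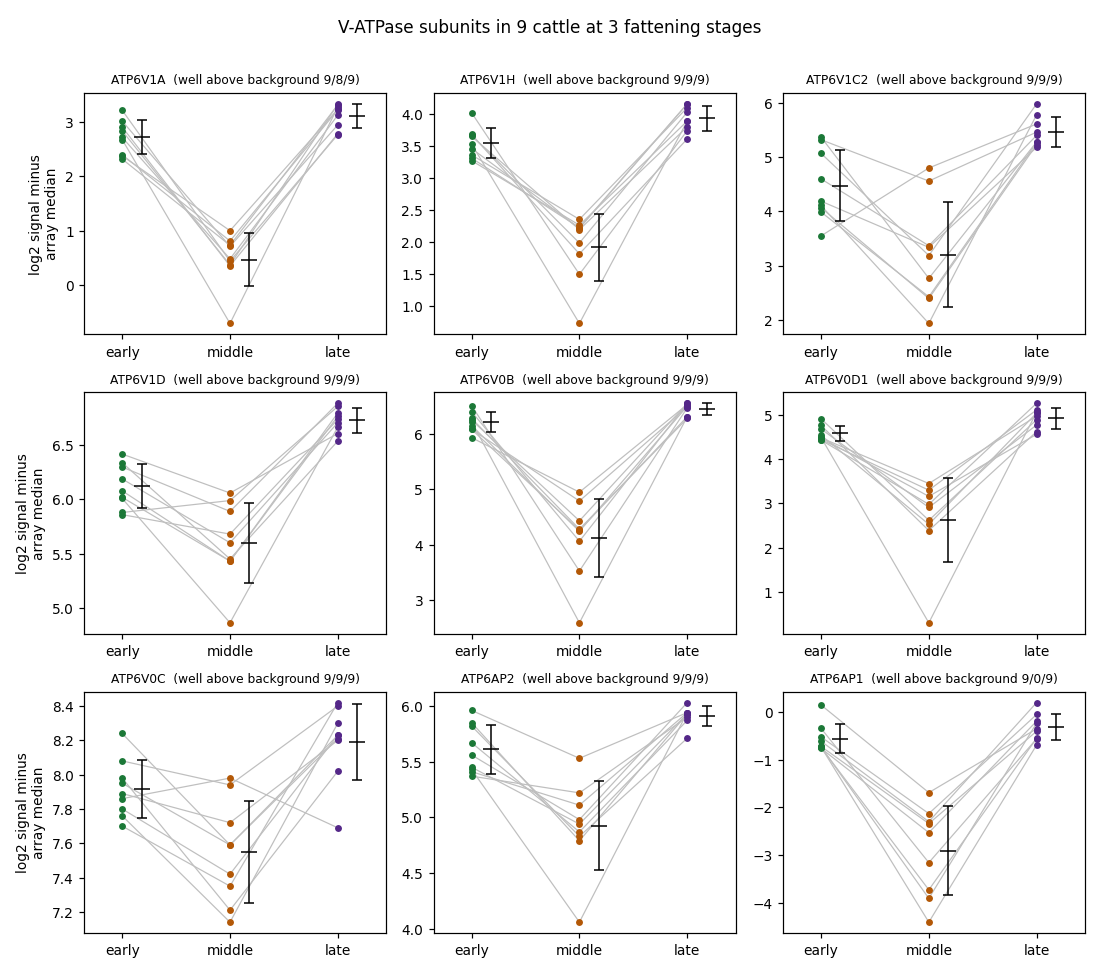
Level (log2 processed signal minus array median) of 9 V-ATPase genes in each animal (points, gray lines join an animal) at the early, middle and late stage, with the mean and SD beside them. The number of arrays of 9 well above background at the early, middle and late stage is in each panel title. ATP6V1A, ATP6V1H, ATP6V0B and ATP6V0D1 had no middle-stage array within the range of the other stages, and animal 4 was the lowest middle-stage value of each of these 4.

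Within the complex, the subunits changed by unequal amounts. Taken within each animal, where the scaling of the array cancels, ATP6V1A fell more than ATP6V1E1 by 1.87 ± 0.55 (SD, n = 9) on the log2 scale in the first period, in 9 of 9 cattle, and rose more by 2.01 ± 0.37 in the second, in 9 of 9. ATP6V1G1 fell against ATP6V1G2 by 1.83 ± 1.33 in 9 of 9 cattle. This difference was widest in animal 4, whose middle-stage array was the dimmest. There ATP6V1G1 went from 5.78 to 3.38 and ATP6V1G2 from -1.61 to 0.89. The change of ATP6V1C1 minus that of ATP6V1C2 was 0.29 ± 1.01 in the first period, above 0 in 5 of 9 cattle, and -1.15 ± 0.84 in the second, below 0 in 8 of 9. These pairs were picked after their values were seen, so the differences are a description and were not tested. For the 13 V-ATPase genes well above background on all 27 arrays, the median SD over 9 cattle was 0.196 early, 0.62 in the middle stage and 0.167 late, beside 0.213, 0.415 and 0.196 over 6797 probes of that brightness. The middle-stage value rested on animal 4, without which it was 0.29, beside 0.341 over those probes.

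Of 17 V-ATPase genes measured in both stages, 12 were lower and 1 higher in the first period, with a median change of -0.58, and 13 were higher and 0 lower in the second, with a median of 0.98. Of all measured probes, 28.4% were lower and 33.8% higher in the first period, and 37.3% higher and 30% lower in the second. Values did not overlap between stages for 5 of 17 and for 8 of 17, where 17.3% and 24.8% of measured probes had no overlap. Leaving out any 1 animal gave 12 to 14 in both periods. With animal 4, whose middle-stage array was the dimmest, left out, the median was -0.47 and 0.85 with 12 and 13 called. When slide was added as a fixed term, 0 of 17 passed in the first period, with 14 of the same sign and a median of -0.76 (limma, 1 at an unadjusted *P* below 0.05). Of all probes, 1238 of 15008 passed in that fit. Within slide 2 alone, animal 9 gave the only early-stage array, the middle-stage arrays came from other cattle and no animal block was used. There 16 had the same sign and the median was -0.62. In the second period each slide held 1 stage, so slide and stage cannot be told apart, and a random slide block gave 12 higher.

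**Figure D4:**
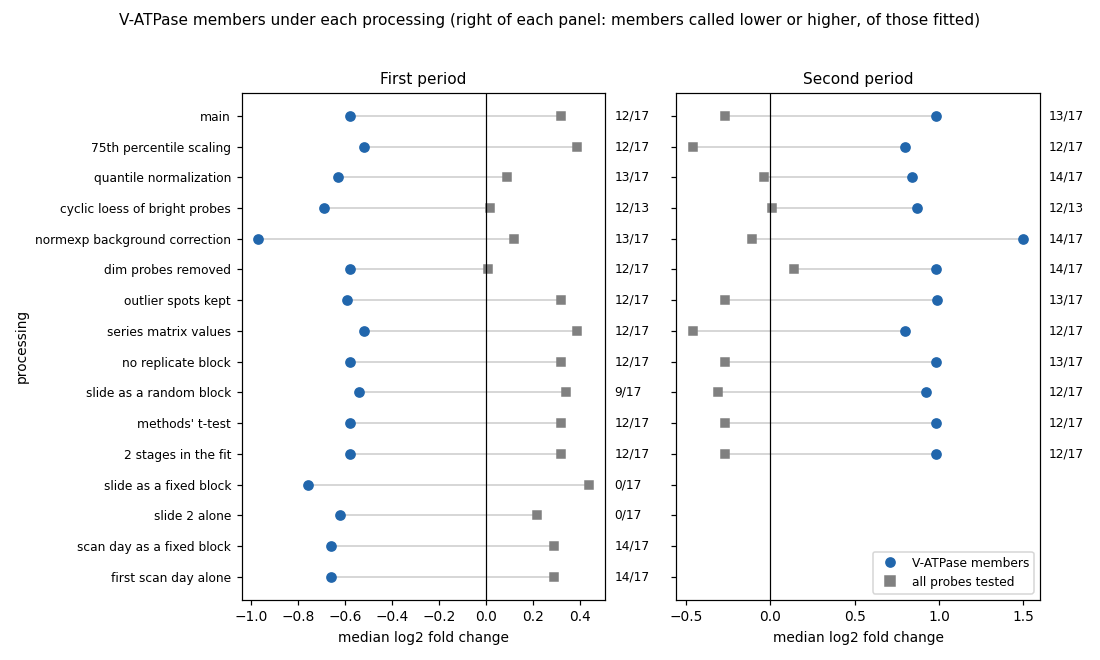
Median log2 fold change of the V-ATPase members measured in both stages (circles) and of all probes tested (squares) under each way of processing the arrays, with the number called in the direction of the median, of those fitted, at the right of each panel. The V-ATPase median lay from -0.97 to -0.52 in the first period and from 0.80 to 1.50 in the second, and first-period calls went to 0 with the slide as a fixed term. Slide 2 alone set the early-stage array of animal 9 against middle-stage arrays of other cattle, without the animal block.

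Cell type markers were counted too. Of all measured probes, 33.8% were higher and 28.4% lower in the first period, and 37.3% higher and 30% lower in the second. In multiples of the array median, 15 stratified epithelial markers summed to 3500 to 4730 early, 1060 to 5050 in the middle stage and 4040 to 5140 late, and of 14 measured 8 were lower and 1 higher in the first period and 5 higher and 1 lower in the second. The 5 of 14 higher in the second period were near the share of all measured probes. Smooth muscle markers, 8 in all, summed to 116 to 402, 104 to 891 and 130 to 221, and of 5 measured 4 were higher and 0 lower in the first period and 0 higher and 5 lower in the second. Hemoglobin and the other red blood cell markers, 4 in all with 1 in the background at the early stage and 2 at the middle stage, summed to 40.1 to 69.3, 106 to 200 and 46.3 to 92.5. Their part in the changes of the pumps was not tested, and in biopsy RNA fewer cells of a type and less RNA per cell cannot be told apart.

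Among 24 partners of the V-ATPase, which assemble it, dock on it in nutrient sensing or share its compartments, 21 were on the array and 17 were measured. In the first period 5 of 17 were higher and 6 lower, near the 33.8% and 28.4% of all measured probes, and in the second 11 were higher and 3 lower, beside 37.3% and 30%. The same shares stand beside the counts of the other partner lists below. VMA21, an assembly chaperone of the V0 sector, fell by 0.53 (adjusted *P* = 0.00599) and rose by 0.80 (adjusted *P* = 0.00014). RRAGA and SLC38A9, of the lysosomal amino acid sensor, fell by 0.89 and 0.53 (adjusted *P* = 0.000288 and 0.000234) and rose by 1.39 and 0.59 (adjusted *P* = 1.83e-06 and 5.24e-05). The chloride-proton exchangers CLCN3 and CLCN7 were higher at the middle stage, by 0.66 and 0.70 (adjusted *P* = 0.00294 and 0.000345), and lower again at the late stage, by -0.88 and -0.79 (adjusted *P* = 0.00019 and 7.83e-05). TCIRG1, a further a subunit of V0 that carries no ATP6V name, passed in the second period (0.38, adjusted *P* = 0.00759) and in the total period (0.50, adjusted *P* = 0.00561).

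Of the 10 beta and FXYD genes of the sodium pump, 5 were measured, with 1 higher (ATP1B1), 1 lower (FXYD6) and 3 not passing in the first period, and 1 higher (FXYD6), 1 lower (FXYD5) and 3 not passing in the second, which were shares no larger than those of all measured probes. The beta subunits bring the pump to the membrane. ATP1B1 had levels of 1.87 to 3.58 (median 2.53), 2.19 to 4.63 (median 3.08) and 2.59 to 3.83 (median 3.12), with overlap throughout. It was higher at the middle stage by 0.77 (SE 0.20, adjusted *P* = 0.00207) in 9 of 9 cattle. This call was lost with normexp correction (0.31, adjusted *P* = 0.213) and with a random slide block (0.68, adjusted *P* = 0.0712). ATP1B1 changed by -0.20 (adjusted *P* = 0.368) in the second period, and was higher in the total period by 0.57 (adjusted *P* = 0.045), a call lost without any 1 of cattle 1, 2, 5, 7, 8 or 9 (adjusted *P* up to 0.142). ATP1B3 had levels of 9.25 to 9.87 (median 9.55), 9.17 to 10.24 (median 9.72) and 9.33 to 9.68 (median 9.61). No comparison of it passed, with changes of 0.09, -0.13 and -0.03 (SE 0.13 each). With the slide as a fixed term, which rests on 1 early-stage array, the first-period change of ATP1B3 was 1.43. Alternatives gave second-period calls in opposite directions for ATP1B3. These were 0.73 with normexp background correction (adjusted *P* = 0.0405) and -0.31 with 75th percentile scaling (adjusted *P* = 0.0161). The difference between the changes of ATP1B1 and ATP1B3 was 0.68 ± 0.78 in the first period, with ATP1B1 rising more in 8 of 9 cattle.

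FXYD proteins set the affinity and speed of the sodium pump. FXYD3, the form of many epithelia, had levels of 9.45 to 10.20 (median 9.83), 9.38 to 10.29 (median 10.03) and 9.79 to 10.28 (median 10.00), with changes of 0.16, 0.06 and 0.23 (SE 0.10 each) that did not pass. Its second-period change was called with normexp correction (0.91, adjusted *P* = 0.00812) and quantile normalization (0.21, adjusted *P* = 0.0257). The total change of FXYD3 was called with the methods' t-test (adjusted *P* = 0.0276) and with 2 stages in the limma fit (adjusted *P* = 0.0483). FXYD5, dysadherin, which also affects cell adhesion, was lowest at the late stage. Its levels were 7.16 to 8.04 (median 7.49), 6.89 to 7.82 (median 7.25) and 6.51 to 7.34 (median 6.82). The first-period change was -0.20 (adjusted *P* = 0.107), the second-period fall was 0.48 (SE 0.10, adjusted *P* = 0.000497) in 9 of 9 cattle, and the total fall was 0.67 (adjusted *P* = 0.000166), 1.59-fold, in 9 of 9. Normexp correction turned the second-period change to 0.42 and left the total change at -0.37 (adjusted *P* = 0.528). FXYD3 rose against FXYD5 by 0.90 ± 0.23 in the total period within each animal, in 9 of 9. FXYD6, a form known from brain, had levels of 1.20 to 2.04 (median 1.47), -0.96 to 1.61 (median 0.52) and 1.07 to 2.02 (median 1.65). It had a fall of 1.14 (SE 0.20, adjusted *P* = 7.15e-05) and a rise of 1.17 (adjusted *P* = 3.39e-05), in 9 of 9 cattle, and with overlap between stages. Of 7 neuron and glia markers, 4 were measured in the first period, 3 of them higher and 0 lower, beside 33.8% and 28.4% of all measured probes. The 7 markers had a summed level of 5.77 to 9.72 early, 7.76 to 11.9 in the middle stage and 6.35 to 11.6 late. Their part in the values of FXYD6 and ATP6V1G2 was not tested.

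Of 14 partners of the sodium pump, 13 were on the array and 8 measured, 2 higher and 2 lower in the first period and 2 higher and 3 lower in the second. MAL, a raft protein of apical membranes, fell by 1.14 (adjusted *P* = 2.54e-05) and rose by 1.13 (adjusted *P* = 1.68e-05). The kinase SGK1, which raises pump and sodium channel activity, fell by 0.51 (adjusted *P* = 0.0149), and NEDD4L, a ubiquitin ligase that removes sodium channels, rose by 0.58 (adjusted *P* = 0.0016) in the second period.

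**Figure D5:**
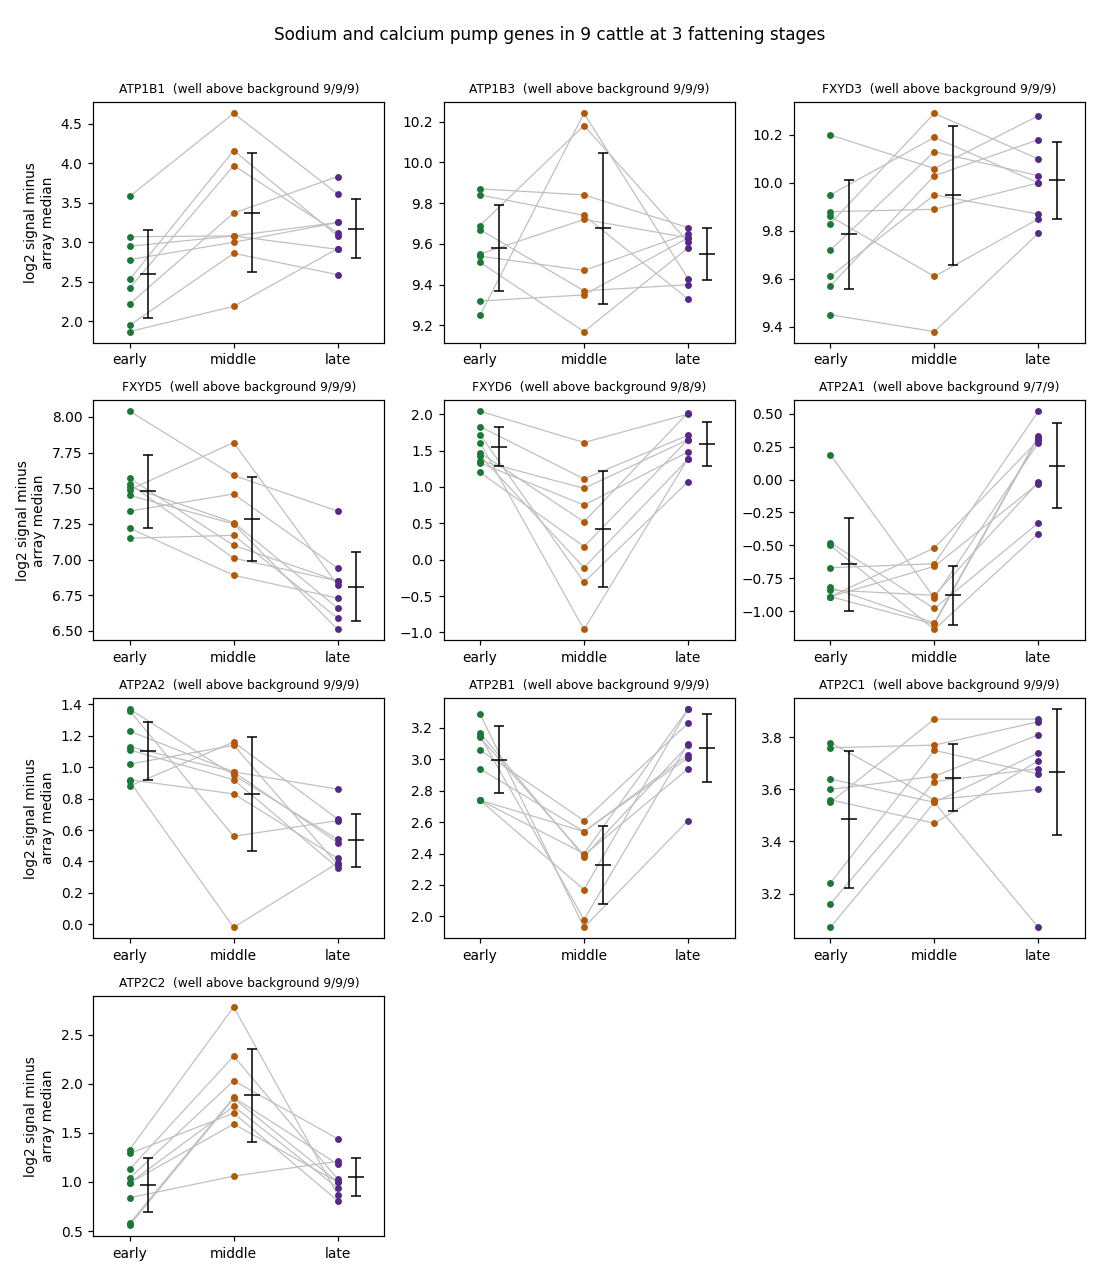
Level (log2 processed signal minus array median) of 10 sodium pump, FXYD and calcium pump genes in each animal (points, gray lines join an animal) at the early, middle and late stage, with the mean and SD beside them. ATP2C2 was highest at the middle stage, FXYD6 and ATP2B1 were lowest there, FXYD5 and ATP2A2 were lowest late, and ATP2A1 was highest late.

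Among 9 calcium pumps, 5 were measured in both periods, 1 higher and 1 lower in the first and 2 higher and 2 lower in the second, beside 33.8% and 28.4%, then 37.3% and 30%, of all measured probes. The SERCA pumps of the endoplasmic reticulum diverged. ATP2A2, the form of most tissues and the one mutated in Darier disease of the skin, had levels of 0.88 to 1.37 (median 1.11), -0.02 to 1.16 (median 0.95) and 0.36 to 0.86 (median 0.52). All late arrays lay below all early arrays. The first-period change was -0.27 (adjusted *P* = 0.0541), the second-period change -0.30 (adjusted *P* = 0.0348) and the total fall 0.57 (SE 0.12, adjusted *P* = 0.00257) in 9 of 9 cattle. The second-period call did not hold when any 1 of cattle 1, 2, 4, 5, 6 or 9 was left out, and normexp correction gave 0.00. It was also lost with cyclic loess (-0.01), the methods' t-test (adjusted *P* = 0.0587) and 2 stages in the limma fit (adjusted *P* = 0.0868). The first-period fall was called with cyclic loess (-0.58, adjusted *P* = 0.000203) and normexp correction (-0.31, adjusted *P* = 0.00398). It was called too with dim probes removed and without animal 6 or 9, so the period of the fall depended on the processing. ATP2A1, the fast-muscle form, had levels of -0.89 to 0.19 (median -0.82), -1.14 to -0.52 (median -0.90) and -0.41 to 0.52 (median 0.28), so that all late arrays lay above all middle arrays. It changed by -0.24 (adjusted *P* = 0.162), then rose by 0.99 (SE 0.15, adjusted *P* = 1.06e-05) and was higher in the total period by 0.75 (adjusted *P* = 0.00137), in 9 of 9 cattle both times. Of 6 skeletal muscle markers, 3 (MYH1, MYH2 and TNNT3) were well above background on no array, and the summed level of the 6 was 1.67 to 2.72, 1.03 to 2.94 and 0.685 to 1.12. ATP2A1 rose against ATP2A2 by 1.32 ± 0.54 in the total period within each animal, in 9 of 9.

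ATP2B1, the widespread plasma membrane calcium pump, had levels of 2.74 to 3.29 (median 3.06), 1.93 to 2.61 (median 2.39) and 2.61 to 3.32 (median 3.09). Every middle-stage array lay below every early array. It fell by 0.67 (SE 0.13, adjusted *P* = 0.000179) and rose by 0.74 (adjusted *P* = 4.45e-05), in 9 of 9 cattle each time. ATP2C1, the secretory pathway calcium and manganese pump of keratinocytes, had levels of 3.07 to 3.78 (median 3.56), 3.47 to 3.87 (median 3.63) and 3.07 to 3.87 (median 3.71), and no comparison of it passed (0.16, 0.02 and 0.18, SE 0.10 each), although normexp correction gave 0.53 in the second period (adjusted *P* = 0.0175). Its relative ATP2C2, of secretory epithelia, had levels of 0.56 to 1.33 (median 0.99), 1.06 to 2.78 (median 1.85) and 0.81 to 1.44 (median 1.00). It rose by 0.91 (SE 0.16, adjusted *P* = 7.39e-05) in 9 of 9 cattle and fell by 0.83 (adjusted *P* = 0.000125) in 8 of 9, a second-period call lost with normexp correction (-0.17, adjusted *P* = 0.082). ATP2C1 fell against ATP2C2 by 0.75 ± 0.50 in the first period and rose against it by 0.85 ± 0.44 in the second.

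Of 18 calcium pump partners, 15 were on the array and 13 measured, 3 higher and 3 lower in the first period and 2 higher and 1 lower in the second. BSG, the basigin that escorts PMCA and monocarboxylate transporters to the membrane, fell by 1.17 (adjusted *P* = 2.78e-05) and rose by 1.27 (adjusted *P* = 7.21e-06). ITPR3, an inositol trisphosphate receptor that releases stored calcium, fell by 0.68 (adjusted *P* = 0.00179) and rose by 0.68 (adjusted *P* = 0.00149).

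The proton-potassium pumps were at the edge of detection. ATP12A, the non-gastric form, was well above background on 2, 0 and 1 of 9 arrays, ATP4A, the gastric catalytic subunit, on 6, 2 and 1, and ATP4B, its beta subunit, on none of 27. Of the copper pumps, ATP7A, which exports copper and fails in Menkes disease, was well above background on 8, 3 and 5 arrays, with levels of -2.36 to -1.57 (median -1.97), -2.79 to -1.28 (median -1.75) and -3.09 to -1.99 (median -2.43). It was measured in the total period, where it was lower by -0.59 (SE 0.18, adjusted *P* = 0.0245) in 7 of 9 cattle, and the call was lost without animal 1, 2, 4 or 5 (adjusted *P* up to 0.0796), with quantile normalization (-0.43, adjusted *P* = 0.43) and with normexp correction (-0.10, adjusted *P* = 0.353). ATP7B, the Wilson disease copper pump, had levels of -0.97 to -0.07 (median -0.67), -2.64 to 0.68 (median -0.40) and -0.50 to 0.08 (median -0.26), and no comparison of it passed (-0.04, 0.38 and 0.34, SE 0.27 each). Of 12 copper partners, 11 were on the array and 10 measured, of which 5 were higher and 4 lower in the first period and 4 higher and 4 lower in the second. SLC31A1, the copper importer, fell by 1.27 (adjusted *P* = 1.94e-05) and rose by 1.41 (adjusted *P* = 3.5e-06), while the metallothionein MT1A rose by 0.81 (adjusted *P* = 9.43e-05) and fell by 0.75 (adjusted *P* = 0.00014).

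Between the early and the late stage, 32 members were measured, with 5 higher, 4 lower and 23 not passing, against 15% and 8.22% of measured probes. The 5 higher were ATP6V1B1, ATP6V1C2, ATP6V1D, ATP1B1 and ATP2A1, and the 4 lower were ATP6V1G1, FXYD5, ATP2A2 and ATP7A. Of the V-ATPase genes, 19 were measured, with 3 higher, 1 lower and a median change of 0.29. Under a random slide block, 0 of 49 members were called in the total period (7 at an unadjusted *P* below 0.05), and since early and late arrays shared no slide, slide and stage cannot be told apart there.

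For members mostly in the background, only the number of arrays above it is given. ATP6V1B2, the B subunit of most tissues, was well above background on 1, 3 and 0 of 9 arrays. ATP2B4, a plasma membrane calcium pump, was well above background on 1, 0 and 0 arrays, and FXYD2, the kidney gamma subunit of the sodium pump, on none, so no change is given for these 3. Among 21 lipid-flipping and other P-type ATPases with their subunits, 15 were on the array and 7 measured in both periods, 3 higher and 3 lower in the first and 4 higher and 3 lower in the second.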

How the data were processed

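RNA of 27 RE biopsies, from 9 cattle at 3 stages, was hybridized to one-color arrays. The labels give the tissue as RE, but their extraction note names 2 other tissues. The authors deposited Agilent Feature Extraction intensity values on a linear scale (submitters' processing notes: version 9.5, scanner output: version 11.0.1.1), with a background surface subtracted by the software, and flags of 0 or 1 per spot. They also deposited log2 values, which match log2 processed signals scaled by the 75th percentile per array and were used as an alternative. The number of arrays limits the precision.

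Here log2 processed signal minus the array median was fitted in limma 3.58.1 (R 4.3.3) with 3 stage means and animal as a block, outlier spots missing and saturated spots kept, and Benjamini-Hochberg adjustment over 15008 probes. The same cattle were sampled at each stage, which pairs the arrays. The number that ends each sample title was taken as the animal, which is an assumption of every statement by animal. Deviations from stage means correlated by 0.158 on average within animals (-0.151 to 0.461) and by -0.0198 between them. The procedure was tested on simulated data. Some genes that the naming rule also takes are not reported here and entered no count of members. Members and gene lists were chosen with earlier results of these data known.

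Genes named were, per class, the largest called rise and fall among measured members, a fixed list of pumps familiar in absorbing epithelium, any member called in all 3 periods, and any in the background in 1 stage and above it in another. ATP6V1H, ATP6V1C1, ATP6V1B1, ATP6V1E1, ATP6V1F, ATP6V0A1, ATP6V0A2, ATP6V0E1, ATP6AP1L, ATP4A, ATP4B and the partners named were added after their values were seen. Accessions of 38 members matched the RefSeq gene table (ARS-UCD2.0) with no differing symbol. Alternatives were other scalings, background corrections and filters, the deposited log2 table, slide or scan day as a block, no animal block, the methods' t-test, fits of 2 stages, and leaving out each animal.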

Additional observations from a re-analysis of the deposited data

Results flagged for a closer look

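In groups of 9 cattle, 12 of 78 gene and stage values had a highest or lowest animal set apart from the others beyond Dixon's 95% critical value, where chance alone flags about 1 in 20 groups. Animal 4 was the low value at the middle stage for ATP6V1A (-0.71, next animal 0.35), ATP6V1G1 (3.38, next 4.62), ATP6V0D1 (0.31, next 2.39) and ATP6AP2 (4.06, next 4.79), and its middle-stage array had the lowest median signal, 8.22. ATP6V1G1 was also set apart in animal 1 at the early stage (5.08) and in animal 9 at the late stage (5.40). FXYD5 was high in animal 1 at the early stage (8.04), ATP6AP1 high in animal 7 at the early stage (0.15), ATP2A1 high in animal 9 at the early stage (0.19) and ATP2C1 low in animal 4 at the late stage (3.07). ATP2B4 in animal 5 at the early stage (-1.79) was the only array on which that probe was well above background, and ATP6V1B2 in animal 6 at the late stage (-3.61) was in the background.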

How the results depend on the processing

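For the first period, calls among the 49 members went from 33 to 17 with cyclic loess (21 members fitted), 20 with dim probes removed (30 members), 5 when slide was a fixed block and 0 in slide 2 alone, where limma gave 13 members an unadjusted *P* below 0.05, and the median change went from 0.09 to -0.22 with quantile normalization, -0.52 with cyclic loess, -0.41 with dim probes removed and -0.17 in slide 2 alone. In the second period, calls went from 37 to 16 with cyclic loess and 23 with dim probes removed, and the median from -0.13 to -0.31 with 75th percentile scaling and with the deposited log2 table, and turned to 0.21 with quantile normalization, 0.53 with cyclic loess, 0.16 with normexp and 0.67 with dim probes removed. In the total period, calls went from 12 to 5 with quantile normalization, 5 with cyclic loess, 4 with normexp, 0 when slide was a random block and 19 with 2 stages in the fit. Cyclic loess and dim-probe removal fitted fewer members, and the cause of the other shifts was not tested. Over all probes, 1238 of 15008 were called in the first period when slide was a fixed block. The median over all probes moved to 0.39 and -0.46 in the first and second period with 75th percentile scaling and to 0.09 and -0.04 with quantile normalization. Of called members, 51.5% were higher in the first period and 48.6% in the second, against 22.7% and 77.8% with quantile normalization and 11.8% and 81.2% with cyclic loess. V-ATPase calls went from 12 to 0 under the fixed slide block and to 0 in slide 2 alone, and were counted under alternatives chosen after seeing the data. Leaving out 1 animal gave 33 to 37, 33 to 37 and 8 to 11 calls, medians of -0.02 to 0.14, -0.19 to -0.04 and 0.10 to 0.17, and V-ATPase counts of 12 to 14 in both periods. Without the animal as a replicate block, 33 members were called in the first period. Fitted values turned sign with a call on one side for 2 probes in the background on most arrays of at least 1 stage compared, from which no direction is read, FXYD2 in the first period when slide was fixed (-0.93) and ATP7A in the second with quantile normalization (0.07), and in the second period for ATP1B3 (0.73), FXYD5 (0.42) and ATP2A2 (0.00) with normexp. Of 1003 values under alternatives of named genes called as reported, 891 kept their call and direction and 108 lost the call, and of 691 values of those not called 654 stayed uncalled and 36 gained a call. These counts include the mean over all probes of a gene as an alternative. Each member has 1 probe, so that alternative repeated the main fit and its values could not differ. Some of the genes were named because the main fit called them, so the counts do not stand for all members.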
